A study of Mus musculus with 14 samples.

Results

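The genes that encode the constitutive proteasome were followed in 14 transplanted mouse hearts, each hybridised to 1 MG-U74Av2 oligonucleotide array. Members were all genes with a symbol starting Psma, Psmb, Psmc or Psmd that a probe set names alone, leaving out the immunoproteasome genes Psmb8, Psmb9 and Psmb10. This gave 35 of the 8252 genes named on the array, with 45 of its 12488 probe sets, and the brightest probe set stood for each gene. One of them, Psmc3ip, carries the symbol of a partner of Psmc3 and encodes no subunit. Its signal was 1.9 to 7.8, under the floor of 11 on all 14 arrays, so 34 genes were tested, and the symbol rule here holds subunits and 3 assembly chaperones.

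Isografts were C57/BL6 hearts in C57/BL6 recipients, taken at day 7 (n = 3) and day 70 (n = 2). Allografts were Balb/c hearts in C57/BL6 recipients. They were either untreated and rejecting at day 7 (n = 3) or tolerizing under anti CD80/86 mAb, which blocks T cell costimulation, at day 7 (n = 3) and day 70 (n = 3). Donor strain therefore differs whenever allografts are set against isografts, and its part cannot be told apart from that of the allogeneic response. The hearts are whole organs with all cells they held, and in such bulk RNA fewer cells of a type and less RNA per cell cannot be told apart.

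The proteasome is the cell's main protease for proteins tagged with ubiquitin. Its 20S core is a barrel of stacked rings: outer alpha rings that gate the entrance and inner beta rings that hold the proteolytic sites. The 19S cap has a base, whose ATPases unfold substrates and thread them into the core, and a lid that removes ubiquitin. Interferon-gamma induces the immunoproteasome genes, whose products replace the catalytic beta subunits in new core particles, and the products of this form feed MHC class I presentation. Cardiac muscle relies on the proteasome to turn over its contractile proteins.

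Signals are linear intensities as deposited. Every array had a trimmed mean near 100.06, and the floor was passed by 71.9% to 78.7% of its probe sets. Levels of different genes cannot be compared, because each probe set has its own response. Cardiomyocyte markers were above the floor in all groups, and their summed signal (9 of 10 listed genes on the array) was 34392 to 50728 in isografts and 4675 to 20911.5 in rejecting allografts at day 7. All 9 were lower in rejection. The summed signal of 7 leukocyte markers was 1617 to 1746.9 and 5049.3 to 7819.9, and all 7 were higher. Among the T cell, macrophage, endothelial, fibroblast and dividing-cell lists, the only gene at or under the floor on all arrays of a group was Cd8a in isografts at day 70. The ratio of 3' to 5' beta-actin signal, a sign of RNA quality, lay at day 7 between 1.52 and 1.98 for isografts, between 1.26 and 1.61 for rejecting hearts and between 1.09 and 1.37 for tolerizing hearts. The part of these shifts in the results below was not tested, except where a value from a fit that includes the beta-actin ratio is given.

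The first comparison asked what rejection at day 7 did to the subunit genes. Few of them passed the test, and those that did went both ways. Of the 34 genes, 2 rose (Psma5 and Psmd8), 1 fell (Psmc3) and 31 did not pass limma's test at an adjusted p of 0.05. Over all 10395 probe sets tested, 17.7% were called in this comparison, 8.54% higher and 9.18% lower, so the members' 3 calls are not above that share. Their median log2 difference was 0.13, against 0.04 over all probe sets, with 19 genes above 0 and 15 below. For 23 of the 34, the 95% interval lay within a 2-fold change in either direction, and for the others it reached past that size. Over all probe sets, 4662 of 10395 intervals lay within 2-fold.

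**Figure D1:**
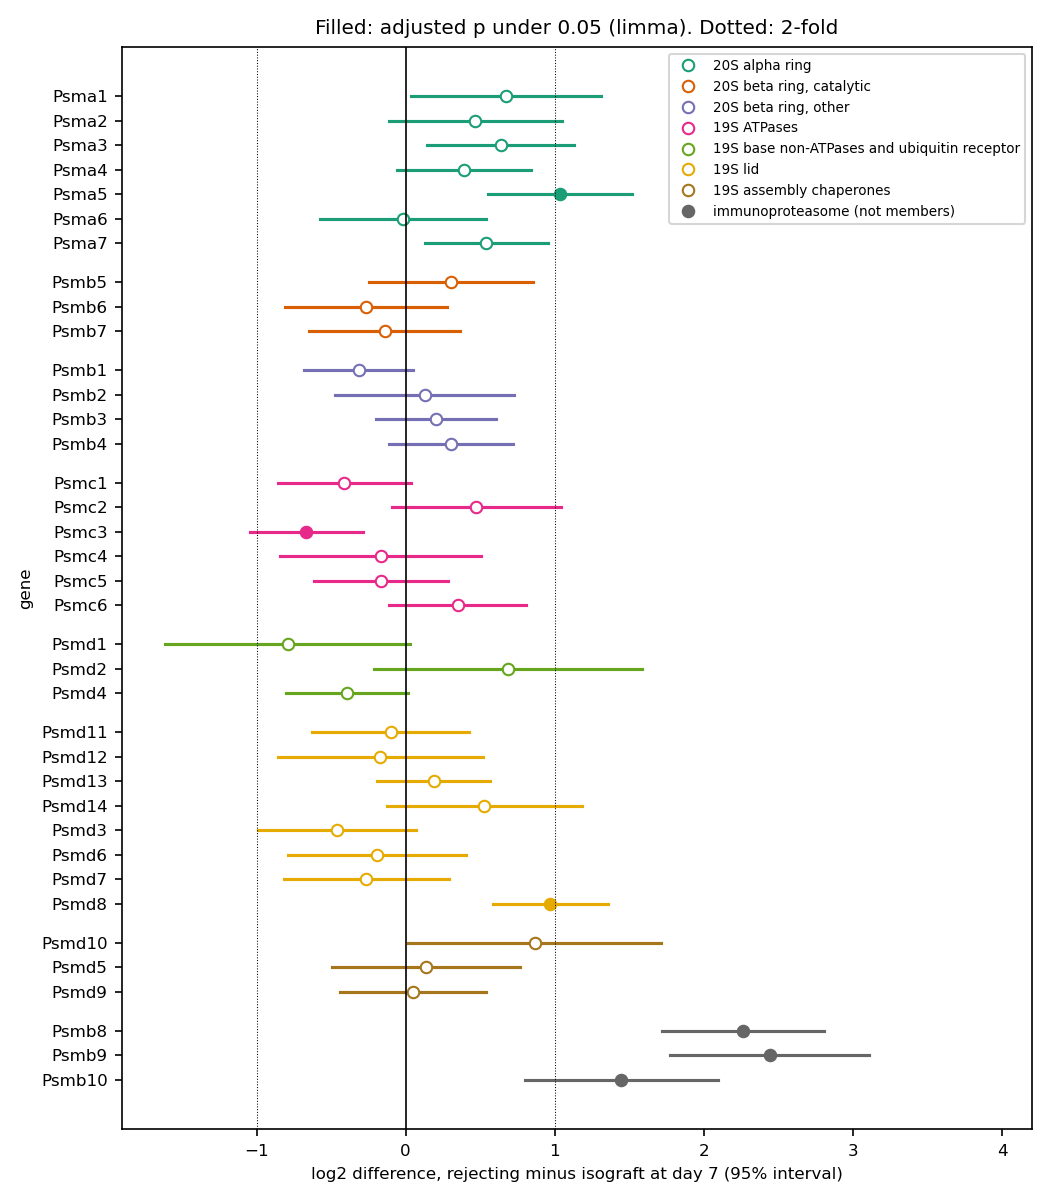
Log2 difference between rejecting allografts (n = 3) and isografts (n = 3) at day 7 for the 34 member genes by role, with 95% intervals from limma; filled points passed the adjusted threshold of 0.05 and dotted lines mark a 2-fold change. Only Psma5, Psmc3 and Psmd8 are filled among members, while the immunoproteasome genes at the bottom lie at 1.445 to 2.44.

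Psmd8, a lid subunit that joins late in lid assembly, had intensities of 112.4, 102 and 98.7 in the isografts and of 197.1, 189.8 and 228 in the rejecting hearts. Every rejecting heart was above every isograft. The means were 104.4 ± 7.15 and 205 ± 20.3 (SD, n = 3 each), a rise of 0.97 ± 0.18 (SE) on the log2 scale or 1.96-fold (limma, adjusted p = 0.002468). In tolerizing hearts the signal was 163, 125.4 and 144.5 at day 7 and 129.7, 149.8 and 143.1 at day 70, between the isografts and the rejecting hearts, and the day 70 isografts gave 85.5 and 119.7.

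Psma5 encodes an alpha ring subunit. Isografts gave 333.8, 251.4 and 233.8 and rejecting hearts 431.6, 574.3 and 681.7, with no overlap. Means were 273 ± 53.4 and 562.5 ± 125 (SD, n = 3 each), 2.05-fold higher in rejection, with a log2 difference of 1.035 ± 0.23 (SE; limma, adjusted p = 0.006233). Tolerizing hearts lay at 550.1, 459.4 and 525.9 at day 7 and at 356.2, 435.1 and 504 at day 70, and the day 70 isografts at 222.9 and 347.5. All 9 allografts were thus above all 5 isografts. The call in rejection was lost when the 9 hearts of the second accession run were fitted alone (adjusted p = 0.05992).

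Psmc3, an ATPase of the 19S base, was the single member that fell. The isograft values of 476.5, 431.8 and 375.3 lay above the rejecting values of 241.1, 246.1 and 325.9. From 427.9 ± 50.7 to 271 ± 47.6 (SD, n = 3 each) it fell by 0.67 on the log2 scale, with an SE of 0.18, which is 1.59-fold (limma, adjusted p = 0.01803). Tolerizing hearts gave 292.5, 352.5 and 319.2 at day 7 and 313.8, 401.3 and 426.3 at day 70, and the day 70 isografts 408.8 and 459. The call is the weakest of the 3: leaving out isograft 1, isograft 2, rejecting heart 1 or rejecting heart 2 raised the adjusted p to 0.07898, 0.05549, 0.066 and 0.07192. The other probe sets of Psmc3 gave -0.47 (adjusted p = 0.1199) and -0.36 (adjusted p = 0.554), and the one used here is of the kind that can also bind related sequences.

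**Figure D2:**
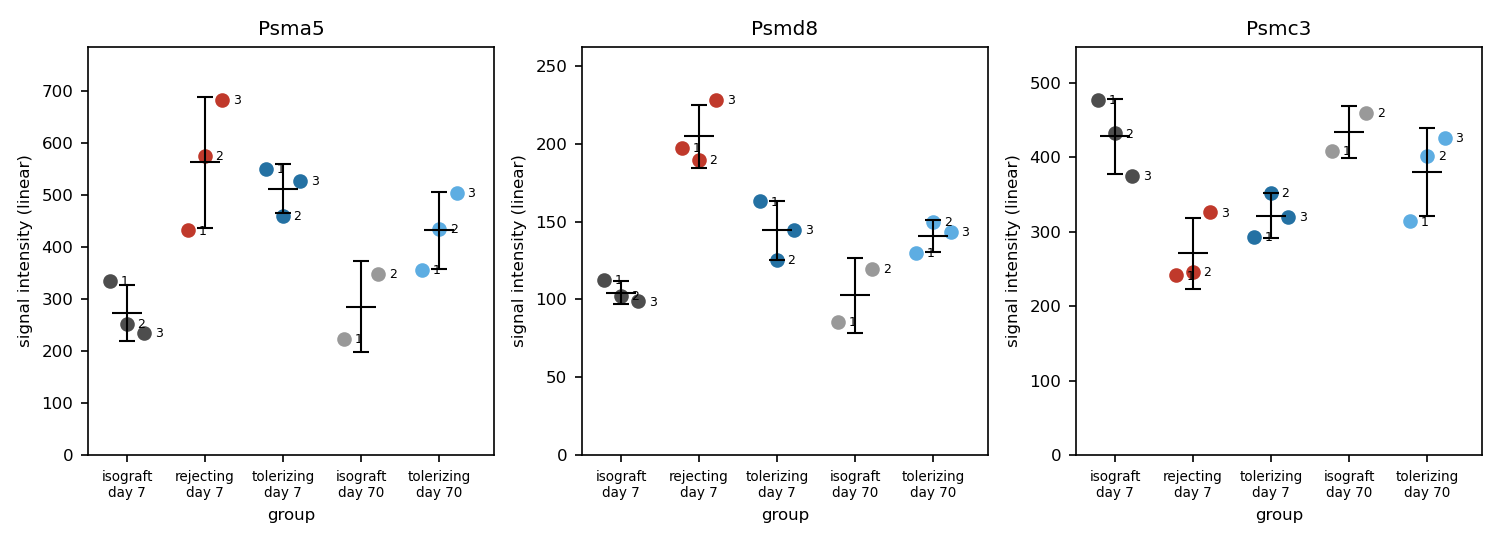
Intensity (linear scale, from 0) of the 3 called genes on each array, numbered by replicate, with the mean and SD of each group (horizontal bars and error bars; n = 3, and n = 2 for isografts at day 70). Psma5 and Psmd8 are higher in all 9 allografts than in all 5 isografts, and for Psmc3 rejecting hearts 1 and 2 are the lowest of all 14.

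Promoter sequences of both genes that rose are shown with those of the catalytic gene Psmb5 and, for contrast, of Psmb8, its immunoproteasome counterpart. Each is the 250 bases before the RefSeq start site in the GRCm38.p6 build, on the gene's strand. Capitals mark matches on either strand to the core of the antioxidant response element (TGACNNNGC), the CCAAT box (CCAAT), the GC box (GGGCGG), the interferon-gamma activated site (TTCNNNGAA) and the core of the interferon-stimulated response element (GAAANNGAA). Positions are chr3:108256676-108256925 (plus strand) for Psma5, chr7:29180674-29180923 (minus strand) for Psmd8, chr14:54617996-54618245 (minus strand) for Psmb5 and chr17:34197945-34198194 (plus strand) for Psmb8.
Psma5: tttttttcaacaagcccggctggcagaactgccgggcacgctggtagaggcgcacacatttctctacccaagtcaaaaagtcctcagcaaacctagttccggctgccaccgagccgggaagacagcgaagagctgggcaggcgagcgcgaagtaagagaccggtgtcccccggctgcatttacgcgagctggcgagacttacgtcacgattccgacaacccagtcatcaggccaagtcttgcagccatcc
Psmd8: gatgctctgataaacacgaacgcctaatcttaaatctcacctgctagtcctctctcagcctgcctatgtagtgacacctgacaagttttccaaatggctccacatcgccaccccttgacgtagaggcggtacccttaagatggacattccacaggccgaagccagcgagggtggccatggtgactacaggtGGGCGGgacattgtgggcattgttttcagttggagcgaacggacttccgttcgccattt
Psmb5: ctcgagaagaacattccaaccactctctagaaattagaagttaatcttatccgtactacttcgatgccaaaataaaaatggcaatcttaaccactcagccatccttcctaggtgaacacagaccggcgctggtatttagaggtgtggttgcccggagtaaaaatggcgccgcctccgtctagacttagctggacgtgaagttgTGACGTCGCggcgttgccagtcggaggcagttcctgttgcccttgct
Psmb8: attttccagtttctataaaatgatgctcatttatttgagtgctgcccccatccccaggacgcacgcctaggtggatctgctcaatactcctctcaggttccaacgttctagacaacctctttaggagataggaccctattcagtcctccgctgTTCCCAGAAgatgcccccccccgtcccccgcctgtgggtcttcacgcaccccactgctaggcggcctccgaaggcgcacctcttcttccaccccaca

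The Psma5 window holds none of these letters. Psmd8 has a GC box whose first base lies 59 bases before the start site, Psmb5 an antioxidant response element core at 47 bases, and Psmb8 an interferon-gamma activated site at 97 bases. A window was found for 29 of the 35 members, and none was used for Psmb1, Psmb2, Psmb7, Psmc3, Psmd3 and Psmd7. The GC box was in 17 of the 29 (58.6%, against 35.4% of 27025 genes) and the CCAAT box in 12 (41.4% against 37.5%). The antioxidant core stood in 5 (17.2% against 11.5%), namely Psmb5, Psmb6, Psmc6, Psmd12 and Psmd9. The interferon-gamma site was in 0 of 29 (8.13% of all genes) and the interferon-stimulated core in 3 (10.3% against 8.18%), Psmb3, Psmd4 and Psmd9. Of the immunoproteasome genes, Psmb8 alone had the interferon-gamma site. The windows of Psmb9 and Psmb10 did not hold it, and none of these genes had the interferon-stimulated core. These are matches of letters and no evidence of binding.

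The alpha ring, whose subunits form the gated entrance of the core, had 6 of its 7 genes above 0 in rejection, with 1 of 7 (Psma5) past the test. The median was 0.54 and the range -0.02 to 1.035. Psma3, which went from 880.9 ± 91.5 to 1385 ± 288 (SD, n = 3 each), differed by 0.64 (limma, adjusted p = 0.07255), and no rejecting heart overlapped the isografts. It passed under quantile normalization (adjusted p = 0.03837) and with the accession run as a block (adjusted p = 0.03341). Psma7 differed by 0.54 (adjusted p = 0.06875), Psma1 by 0.67, Psma2 by 0.47 and Psma4 by 0.39, none of them past the threshold. Psma6 had one of the largest p-values of all members: 730, 628.6 and 830.1 in isografts and 530.5, 657.8 and 1048 in rejecting hearts, a difference of -0.02 (adjusted p = 0.9796). Its rejecting values span the whole isograft range.

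The catalytic beta subunits are Psmb6, which cuts after acidic residues, Psmb7, with trypsin-like activity, and Psmb5, with chymotrypsin-like activity. None of the 3 passed limma's test in rejection (0 also at an unadjusted p under 0.05), and in each the groups overlapped. Psmb5 gave 373.4, 327.5 and 432 in isografts and 335, 474 and 626.1 in rejecting hearts, a difference of 0.30 (adjusted p = 0.4829). A dimmer probe set of Psmb5 gave 0.41, with an interval past 2-fold (limma, adjusted p = 0.5982). Psmb6 gave 438.2, 365.1 and 335 against 261.3, 253.3 and 466, a difference of -0.27 (adjusted p = 0.5445). Psmb7 gave 437, 337.7 and 434 against 257.3, 362.3 and 512.9, a difference of -0.14 (adjusted p = 0.7595). In all 3 genes rejecting heart 3 was the highest of its group. Psmb6 passed in the second accession run alone, at -0.64 (limma, adjusted p = 0.0435). That fit leaves out isograft 3 and the other first-run hearts as well as rejecting heart 3. With rejecting heart 3 alone left out, Psmb6 was not called.

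In tolerizing hearts the catalytic genes lay in the same range. Psmb5 was 395.7, 496.2 and 366 at day 7 and 274.9, 356.9 and 488.4 at day 70, with 317.9 and 418.5 in day 70 isografts. Psmb6 was 275.5, 260 and 348.8, then 264.1, 324 and 387, with 303.5 and 451.6 in those isografts. For Psmb7 the values were 391.3, 472.4 and 481.5, then 312.3, 470.1 and 402.3, with 418.8 and 477.1. Tolerizing hearts overlapped the isografts of the same day for each gene at both days. The remaining beta genes, which build the ring without a proteolytic site, all had intervals within 2-fold in rejection: Psmb1 at -0.315, Psmb2 at 0.13, Psmb3 at 0.20 and Psmb4 at 0.31. A further bright probe set of Psmb1 gave 0.04. Dim ones gave -0.04 for Psmb1 and 0.55 for Psmb4, the latter with an interval past 2-fold.

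Of the 6 ATPase genes, whose products form the ring that unfolds substrates, 4 lay below 0 in rejection and 2 above, with 1 (Psmc3) past the test. Psmc1 differed by -0.41 and Psmc2 by 0.47. Psmc5, which went from 250.7 ± 5.27 to 232.7 ± 82 (SD, n = 3 each), differed by -0.17, and Psmc6 by 0.35. Psmc4 was dim, at 4.2 to 33.3 and above the floor on 12 of 14 arrays, and its difference of -0.17 rests on values near the floor.

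The base also holds Psmd1 and Psmd2, large scaffolds that dock shuttle proteins, and Psmd4, which binds ubiquitin chains. Psmd1 was 325.6 ± 47.2 in isografts and 201.5 ± 96.9 in rejecting hearts (SD, n = 3 each), a difference of -0.79 (limma, adjusted p = 0.1869). Psmd4 was 407.9 ± 44.2 and 314.5 ± 69.9, a difference of -0.39 (adjusted p = 0.1919). Both passed once rejecting heart 3 was left out, Psmd1 at -1.155 (adjusted p = 0.04592) and Psmd4 at -0.57 (adjusted p = 0.04283). Psmd2 was above the floor on 5 of 14 arrays. Its difference of 0.685 comes from rejecting heart 1 alone, at 45.7, since the other rejecting hearts and the isografts lay under the floor, and without that heart the difference was 0.

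The lid genes did not share a direction: 3 of 8 lay above 0 and 5 below, with a median of -0.14 and Psmd8 as the single call. Psmd14 encodes the metalloprotease that removes ubiquitin from substrates. It was 167.1 ± 10.6 in isografts and 261.5 ± 131 in rejecting hearts (SD, n = 3 each), a difference of 0.53 with overlapping groups. Psmd3, a scaffold of the lid, differed by -0.46 without overlap of the groups but short of the threshold (limma, adjusted p = 0.2382). The others, structural subunits of the lid, ranged from -0.26 for Psmd7 to 0.19 for Psmd13, with Psmd6 at -0.19, Psmd11 at -0.10 and Psmd12 at -0.17. Other probe sets of Psmd11 gave 0.21 and -0.08.

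The chaperones Psmd5, Psmd9 and Psmd10 hold ATPases during assembly of the base and leave the finished cap. All 3 lay above 0 in rejection and none passed the test. Psmd10, also known as gankyrin, was dim at 23.67 ± 11.6 in isografts and 40.97 ± 13.6 in rejecting hearts (SD, n = 3 each), a difference of 0.87 (limma, adjusted p = 0.1618). Psmd5 differed by 0.13. Psmd9 gave 80.3, 83.4 and 93.1 in isografts and 107.5, 89.4 and 71.6 in rejecting hearts, a difference of 0.05 (adjusted p = 0.9314). Its rejecting values lie on both sides of the isograft range.

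Rejecting heart 3 stood apart from the other two. It held the highest value of all 14 arrays for 19 of the 34 genes, against 11.5% of all probe sets tested. Among the 3 rejecting hearts it was highest for 25 genes (73.5%, against 31.5% of all probe sets), including all 7 alpha ring and all 3 catalytic genes. The median member lay 0.55 above the mean of the other two rejecting hearts on the log2 scale, while the median over all probe sets lay at -0.15. Relative to the isograft mean, the member median was -0.09, 0.10 and 0.42 in rejecting hearts 1, 2 and 3, and 0.12, -0.06 and -0.11 in the isografts. Summed cardiomyocyte signal was 4675, 6974.1 and 20911.5 in rejecting hearts 1, 2 and 3, T cell signal 270.1, 541.4 and 1175.8, and fibroblast signal 10728.1, 7503.4 and 2622.4. Leukocyte signal was 5049.3, 6206.4 and 7819.9 and dividing-cell signal 2335.7, 1726.6 and 3340.2. Macrophage signal was lowest in heart 3, at 4913.6, 4602 and 3939.3, and endothelial signal was 804.8, 913.7 and 908.5. The part of these differences in the proteasome values was not tested. Heart 3 is also the one rejecting heart of the first accession run, and among rejecting hearts, heart and run cannot be told apart. Relative to the same isograft mean, the other first-run hearts of day 7 had member medians of -0.11 (isograft) and 0.09 (tolerizing). Those of day 70 had 0.10 (isograft) and 0.31 (tolerizing). Heart 3 had the lowest share of probe sets above the floor of the 14 arrays, at 71.9%. Its beta-actin ratio was 1.26, against 1.61 and 1.36 in rejecting hearts 1 and 2. The part of the run and of these measures in the values of heart 3 was not tested. In the second run alone the member median in rejection was -0.004, and 3 genes were called, Psmd8, Psmc3 and Psmb6. Without heart 3, 5 genes were called, 2 higher and 3 lower. The share of all probe sets called in these alternative fits is not given here, so their counts show nothing particular to the members.

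**Figure D3:**
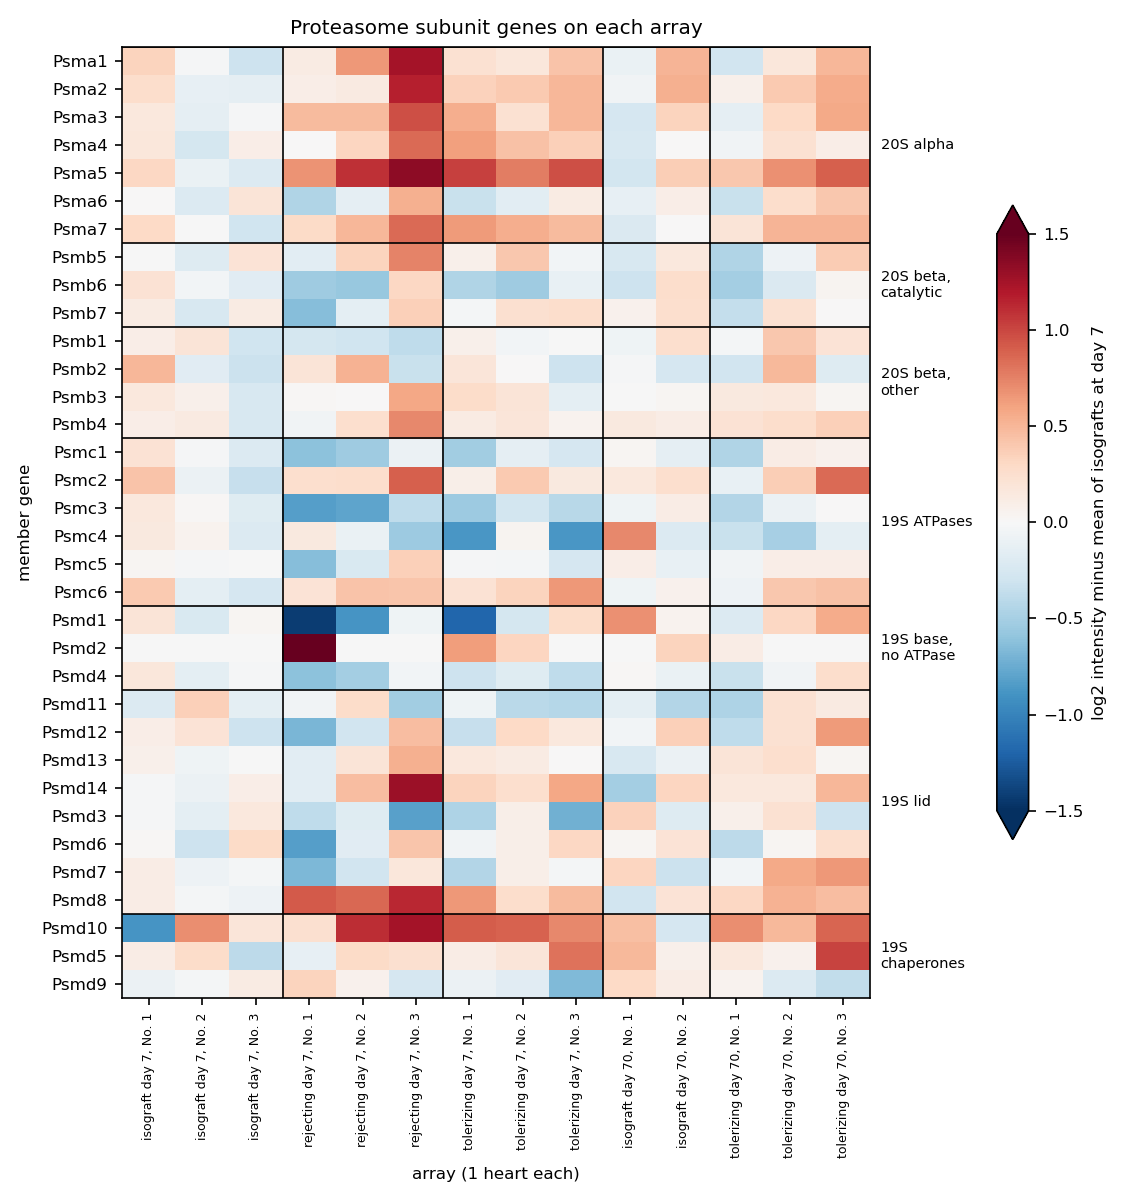
Log2 intensity of the 34 genes (rows, by role) on the 14 arrays (columns), each as the difference from the mean of the 3 isografts at day 7; red is higher and blue lower, and signals under the floor of 11 were set to it. Rejecting heart 3 holds the highest value of all 14 arrays for 19 of the 34 genes.

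Within groups, the alpha ring genes varied with each other. The median correlation between pairs of them, over the deviations of the 14 arrays from their group means, was 0.80, against 0.405 over all 561 pairs of members and 0.64 between alpha ring and ATPase genes. The arrays share their scaling, and no such value over all probe sets is given, so these values are a description. Rejecting heart 3, the highest of its group for all 7 alpha ring genes, enters them, and its part was not tested. The median SD of a member within groups was 0.32 on the log2 scale, from 0.17 for Psmd8 to 0.585 for Psmd2, and 0.37 over all probe sets.

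**Figure D4:**
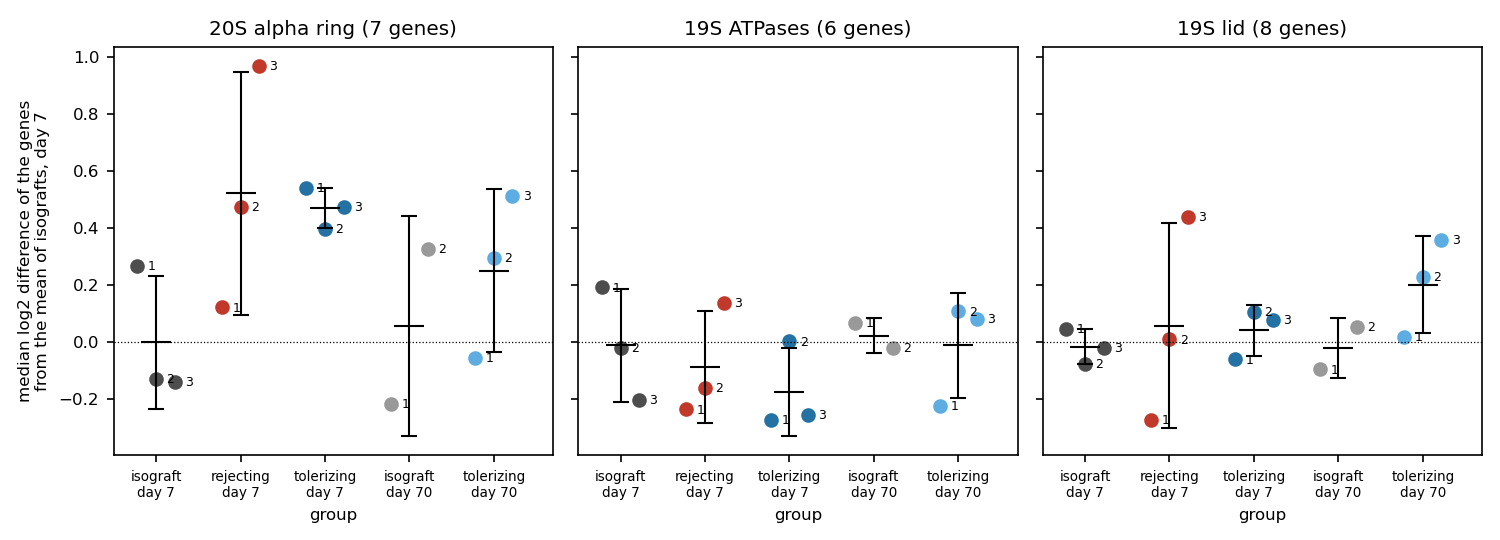
Median log2 difference from the mean of day 7 isografts over the alpha ring (7 genes), ATPase (6) and lid (8) genes, 1 point per array numbered by replicate, with the mean and SD of each group (n = 3, and n = 2 for isografts at day 70). The alpha ring medians of tolerizing hearts at day 7 are 0.40 to 0.54 and those of rejecting hearts 0.12 to 0.97, against -0.14 to 0.27 in day 7 isografts. The day 70 isografts lie at -0.22 and 0.33.

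The second comparison set tolerizing allografts against isografts at day 7. None of the 34 genes passed limma's test, while 1.69% of all probe sets were called and 0.943% called higher. An unadjusted p under 0.05 in limma was found for 5 of the 34 genes and for 1348 of the 10395 probe sets. The median was 0.11 (-0.02 over all probe sets), with 21 genes above 0 and 13 below. Of the intervals, 28 lay within 2-fold (5871 of 10395 over all probe sets). Psma5 came nearest, at 511.8 ± 47 against 273 ± 53.4 (SD, n = 3 each) and 0.92 ± 0.23 (SE), with an adjusted p of 0.06557. It passed with the floor at the 50th percentile (adjusted p = 0.04706) and with the accession run as a block (adjusted p = 0.04418). In a fit that includes the beta-actin ratio, the member median was -0.19, on the other side of 0.

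The tolerizing hearts lay above all isografts in 8 of 34 genes at day 7, where 9.75% of all probe sets did so, and below them in 3, against 11.6%. The 8 were Psma2, Psma3, Psma4, Psma5 and Psma7 of the alpha ring, Psmd8 and Psmd14 of the lid and the chaperone Psmd10. The 3 were Psmc3, Psmd4 and Psmd9. For rejecting hearts the counts were 3 above (Psma3, Psma5 and Psmd8) and 2 below (Psmc3 and Psmd3), against 15.6% and 15.4% of all probe sets. Both comparisons use the same 3 isografts. Psma4 shows the gap: 443.5 ± 68.4 in isografts and 612 ± 57.2 in tolerizing hearts, a difference of 0.47 (limma, adjusted p = 0.3552). The alpha ring again had 6 of 7 genes above 0 with Psma6 below, at -0.12. The same count of 6 of 7 was found under quantile and median scaling.

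Rejecting and tolerizing allografts at day 7 share donor and recipient strain and differ in the antibody. None of the 34 genes passed limma's test between them, and 1.41% of all probe sets were called. An unadjusted p under 0.05 in limma was found for 1 gene and for 1565 of the 10395 probe sets. The median was 0.08 (0.06 over all probe sets) and 30 intervals lay within 2-fold (5714 of 10395 over all probe sets). It changed sign to -0.17 without rejecting heart 3 and to -0.13 in the second run alone. Psmd8 had the smallest p, at 0.51 (adjusted p = 0.1796), with every rejecting heart above every tolerizing heart.

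At day 70, tolerizing allografts were again set against isografts. No gene of the 34 passed limma's test, and 3.2% of all probe sets were called, 2.35% higher. An unadjusted p under 0.05 in limma was found for 3 genes and for 1603 of the 10395 probe sets. The median was 0.10 (-0.09 over all probe sets), with 22 genes above 0 and 12 below. Psma5 was 431.8 ± 74 (SD, n = 3) against 285.2 ± 88.1 (SD, n = 2), a difference of 0.62 (limma, adjusted p = 0.2481). By p, Psma7 at 0.51 and Psmd8 at 0.475 followed. In a fit that includes the beta-actin ratio the member median was -0.001. Tolerizing hearts lay above both isografts in 6 genes (Psma5, Psma7, Psmb4, Psmd8, Psmd10 and Psmd13), against 12.6% of all probe sets, and below them in 1 (Psmd9), against 22%. By the probe sets used, the catalytic genes were all at or below 0, from -0.205 for Psmb6 to -0.01 for Psmb5. A dimmer probe set of Psmb5 lay above 0, at 0.17 (limma, adjusted p = 0.9249).

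Time after transplantation moved no member past the test. Between day 70 and day 7, 0.0385% of all probe sets (4) were called in tolerizing hearts and 0% in isografts. With a replicate block, the tolerizing hearts gave 12 calls over all probe sets and again 0 of the 34 members. The member medians were 0.06 and 0.03, and 0 genes had an unadjusted p under 0.05 in limma in either. Of the 10395 probe sets, 645 and 559 had such a p. The smallest p in tolerizing hearts was that of Psmd7, at 0.52 (adjusted p = 0.8459), and in isografts that of Psmd11, at -0.30 (adjusted p = 0.9877). The difference between tolerizing hearts and isografts did not change between the days past the threshold in any member (interaction, 0% of all probe sets called). An unadjusted p under 0.05 in limma was found for 0 members and for 409 of the 10395 probe sets.

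Against these levels, the immunoproteasome genes rose in all 3 comparisons of allografts with isografts. In rejection Psmb8 rose by 2.26 (limma, adjusted p = 0.000115), Psmb9 by 2.44 (adjusted p = 0.0002989) and Psmb10 by 1.445 (adjusted p = 0.004858). In tolerizing hearts the differences were 2.13, 2.68 and 1.91 at day 7 and 2.81, 3.35 and 2.23 at day 70, all past the threshold. The summed signal of the 7 leukocyte markers was also higher in these hearts, at 3088.7 to 5453.4 against 1617 to 1746.9 in isografts at day 7 (2 of 7 called higher) and at 3286.4 to 5643.7 against 700.7 to 1292 at day 70 (6 of 7). Its part in the rise was not tested. When the fit includes the beta-actin ratio, the 3 calls in tolerizing hearts at day 7 did not hold (adjusted p = 0.08931, 0.08185 and 0.327), at differences of 1.80, 2.435 and 1.375.

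The balance of transcripts was measured as the change in the log2 ratio of each immunoproteasome gene to its constitutive partner. No constitutive partner was called, so most of each ratio's change is that of the immunoproteasome gene, and the ratio says nothing of the subunits in assembled particles. Psmb8 over Psmb5 was 1.96 higher in rejecting hearts than in isografts, a 3.89-fold shift. It was 1.98 higher in tolerizing hearts at day 7 and 2.82 at day 70. For Psmb9 over Psmb6 the shifts were 2.71, 3.05 and 3.56, and for Psmb10 over Psmb7 they were 1.59, 1.755 and 2.43. In each of the 9 cases all allografts lay above all isografts, which with these group sizes gives the lowest p that the two-sided exact permutation test allows, 0.1 (0.1333 adjusted over 12 tests), so none could pass 0.05. Between rejecting and tolerizing hearts the ratios differed by -0.02, -0.34 and -0.17 (exact permutation p = 0.8, 0.3 and 0.6; adjusted p = 0.8, 0.36 and 0.6545).

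**Figure D5:**
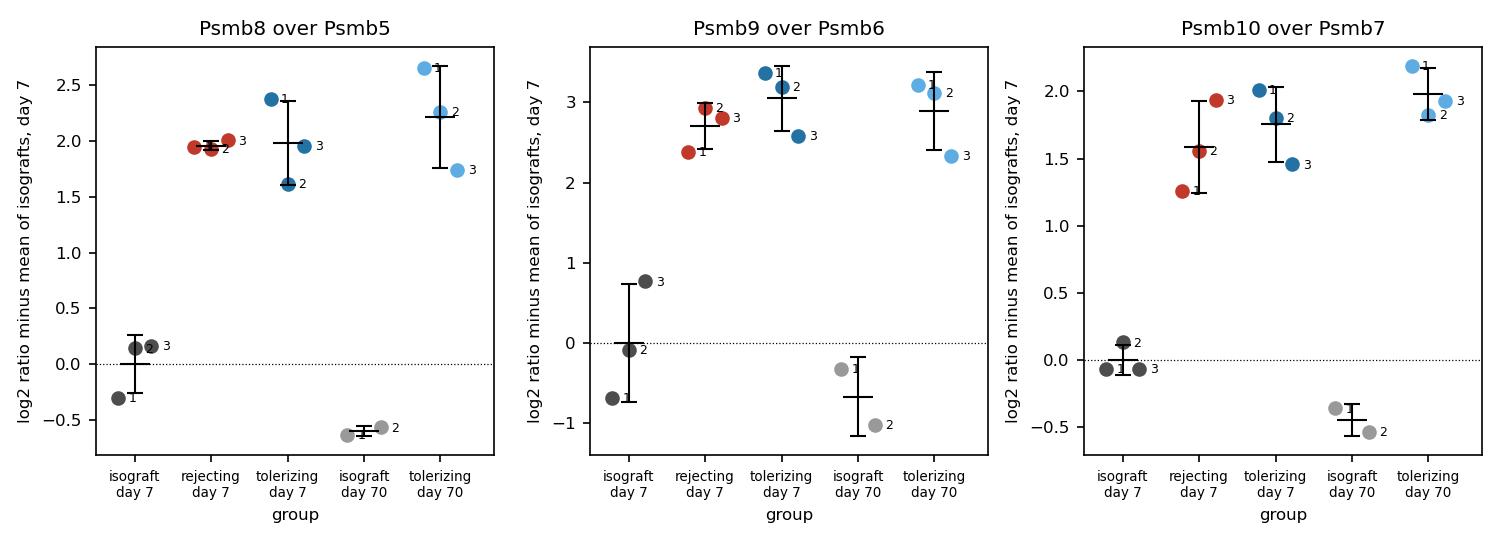
Log2 ratio of each immunoproteasome gene to its constitutive partner on each array, as the difference from the mean of day 7 isografts; points are arrays numbered by replicate, bars the mean and SD of each group (n = 3, and n = 2 for isografts at day 70). All 9 allografts lie above all 5 isografts in each panel, and rejecting and tolerizing hearts overlap.

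Other parts of the pathway were given by list. Of the activators and inhibitor of the core, 3 of 5 genes were tested. Psme1, a subunit of the interferon-inducible PA28 activator, rose in rejection by 0.885 (limma, adjusted p = 0.01167), a call lost in 3 of 16 alternative fits. It also passed in tolerizing hearts at day 7, at 1.02 (adjusted p = 0.02874), and at day 70, at 1.10 (adjusted p = 0.02326), although these calls were lost in 10 of 16 and 7 of 15 such fits. Psme4, the PA200 activator, fell in rejection by 1.51 (adjusted p = 0.01467), from 491.3 ± 17.4 to 186.7 ± 95.4 (SD, n = 3 each). It was chosen after its values were seen, and the call was lost without rejecting heart 1 (adjusted p = 0.067) or 2 (0.05873). Assembly and associated proteins had 0 of 10 genes called in rejection (1 at an unadjusted p under 0.05 in limma) and the shuttles that bring substrates 0 of 6 (1 likewise). Over all probe sets, 17.7% were called and 3034 of 10395 had an unadjusted p under 0.05.

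For the lists that follow, the share of all probe sets called in rejection was 17.7%, with 9.18% lower. Among ubiquitin and the enzymes that charge it, 1 of 14 tested genes was called in rejection, Ube2b, a conjugating enzyme, which fell by 1.47 (limma, adjusted p = 0.00435). The muscle ubiquitin ligases had 1 of 5, Nedd4, which fell by 1.14 (adjusted p = 0.04016), a call lost in 7 of 16 alternative fits, among them each fit without 1 rejecting heart. Of the regulators of proteasome genes 3 of 8 fell and none rose: Nfe2l1 and, named here after their values were seen, Foxo3, at -1.11 (adjusted p = 0.006571), and Nfyc, at -0.60 (adjusted p = 0.02161), whose call was lost in 6 of 16 alternative fits. Nfe2l1 encodes a transcription factor that raises proteasome gene expression when proteasome activity falls. Its isograft values were 829.7, 835 and 694.6 and its rejecting values 383, 433.9 and 360.2, while tolerizing hearts at day 7 gave 519.9, 709.5 and 543.8. Each rejecting heart lay below each tolerizing heart and each isograft. Between isografts and rejecting hearts it fell by 1.00 on the log2 scale, with an SE of 0.18 (adjusted p = 0.001787). Summed cardiomyocyte signal fell in the same hearts, and its part in these lower levels was not tested. Outside the immunoproteasome and Psme1, these lists held no call in tolerizing hearts at day 7 (by limma's unadjusted p under 0.05, 1 assembly gene, 1 of the ubiquitin list, 2 shuttles and 3 regulators) and 1 at day 70. That one, Ube2l6, a conjugating enzyme chosen after its values were seen, was 2.42 higher (limma, adjusted p = 0.04558), a call lost in 9 of 15 such fits. Without isograft 1 of day 70 its difference was 0.96 (adjusted p = 0.4762). None of the lists held a call between rejecting and tolerizing hearts, where 5 genes of the ubiquitin list and 1 regulator had an unadjusted p under 0.05 in limma. Over all probe sets, 1565 of 10395 had such a p.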

How the data were processed

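The authors deposited 1 linear signal intensity per probe set and array, and which software and scaling made it is not stated in the labels. The trimmed mean (2% left out at either end) was 100.06 to 100.07 on every array, so no further scaling was applied. Intensities under a floor of 11, the 25th percentile, were set to it, log2 was taken, and the 10395 probe sets above it on at least 3 of 14 arrays were tested, without 66 control probe sets. Gene names came from the platform annotation, updated through RefSeq gene IDs: 10833 probe sets had 1 gene, 396 several and 1193 none.

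All 5 groups entered 1 fit in limma 3.58.1 under R 4.3.3, with linear models, contrasts and empirical Bayes moderation that follows the intensity (9 residual and 4.45 prior degrees of freedom). Two-sided p-values received the Benjamini-Hochberg adjustment over all probe sets tested, and the threshold was 0.05. The code of the fit was tried on simulated data with independent normal noise for each probe set. Deviations of the members correlate, so that trial says nothing of error rates here. Backgrounds are shares of probe sets, while members are counted as genes. Members, lists and tests were chosen with earlier results of these data known. Every member is named; values on every array are given for called members, the 2 with the largest p in rejection and the catalytic genes; of each pathway list, the called gene of smallest p is named. The probe sets used for Psma3, Psmb4, Psmb5, Psmb7, Psmc3 and Psmd12 are of types that can bind related sequences, so their signals may hold more than 1 gene. The labels do not say whether replicate hearts came from separate operations, so p-values measure the spread between these samples, which may be partly technical. Accession numbers form a first run of 5 arrays and a second of 9. Each run holds all 5 groups. What the runs stand for is not given, and their fits are alternatives. Deviations from group means correlated at 0.34, 0.25 and 0.27 between the same-numbered tolerizing hearts of day 7 and day 70. That pairing comes from these values and not from the labels.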

Additional observations from a re-analysis of the deposited data

How the results depend on the processing

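Precision is limited by 2 or 3 arrays per group. Psmd8 was called in rejection in 16 of 16 alternative fits (adjusted p 0.002122 to 0.02813), Psma5 in 15 and Psmc3 in 11, the last also lost when only the 2 groups were fitted (adjusted p = 0.06595). Leaving out 1 array at a time gave 2 to 5 called members in rejection, and the share of all probe sets called in those fits is not given here. The member median between rejecting and tolerizing hearts was then -0.17 to 0.17. The second accession run alone put that median at -0.13. In tolerizing hearts against isografts at day 7, 1 member was called with the floor at the 50th percentile and 1 with the accession run as a block, both times Psma5, and the beta-actin covariate moved the median to -0.19. The cause of these moves was not tested. Among single calls in rejection, Psmd4 passed with the beta-actin covariate (-0.63, adjusted p = 0.0371), Psma7 without isograft 1 (adjusted p = 0.04392) or rejecting heart 1 (0.04558), and Psma1 without rejecting heart 1 (0.04909). In the 2 groups alone Psmb10 was lost (adjusted p = 0.07014). No called value changed sign in any alternative. A further 111 counts of called members stayed within 1.5 times the main count, and 118 member medians moved by at most 0.167 on the log2 scale, the SD of the median within groups. Small medians still crossed 0: in rejection in 1 of 17 alternatives (-0.004, second run alone), in tolerizing hearts at day 7 in 1 of 17 and at day 70 in 1 of 16, over time in 2 of 17 (tolerizing) and 4 of 16 (isografts), and in the interaction in 9 of 21. With the replicate block, 3 members were called in rejection (Psma5, Psmc3 and Psmd8) with a median of 0.13, and over all probe sets 1991 calls in place of 1842. It changed no member's call. Same-numbered arrays correlated at -0.18 to 0.34 over the 6 comparisons, and no other pair of groups enters this range. Among these comparisons, only the tolerizing hearts of day 7 and day 70 had all 3 pairs over 0.1. The numbers were therefore taken as pairs in that comparison alone.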
